A study of Homo sapiens with 6 samples.

Results

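The 7 genes P2RX5, C12orf75, FAM89A, KLRG2, CYTL1, CRYBG1 and CMBL were followed in HUDEP-2 cells, where their RNA levels were much lower after an shRNA against MEN1. They were taken by name from the deposited gene tables, 7 of 62754 gene rows, because earlier results of the same libraries had shown large falls with the MEN1 shRNA. Their difference between the groups is therefore described here and not tested. HUDEP-2 is an immortalised human erythroid progenitor line, kept proliferating by a doxycycline-inducible viral oncogene cassette. The 6 libraries form 2 groups, 3 transduced with the MEN1 hairpin labelled MEN1sh2 and 3 with a non-targeting control hairpin. All 6 libraries came from cells in StemSpan SFEM with doxycycline (1 µg per ml), dexamethasone (1e-06 M), SCF (50 ng per ml) and EPO (3 units per ml), selected with puromycin at 2 µg per ml and taken at 72 hours. A single MEN1 hairpin in a single cell line was used, so a consequence of menin loss cannot be told apart from an off-target effect of that hairpin. The replicates are labelled biological, with no further word on separate cultures, so the p-values below measure the spread between these libraries.

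Menin, the product of MEN1, is a scaffold subunit of the MLL1 and MLL2 complexes, which methylate histone H3 on lysine 4 at gene starts. It joins the MLL proteins to chromatin-bound partners such as LEDGF, and the MLL proteins carry a CXXC domain that binds unmethylated CpG DNA. In blood cells the complex is best known for keeping genes of stem and progenitor cells active. The 7 genes themselves come from unrelated families: an ATP-gated channel subunit (P2RX5), a C-type lectin-like membrane protein (KLRG2), a secreted cytokine-like protein (CYTL1), a crystallin-fold protein associated with actin (CRYBG1), a hydrolase (CMBL), and FAM89A and C12orf75, whose roles are little described.

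Because MLL complexes act at CpG-rich starts, DNA upstream of the annotated starts is shown, 5′ to 3′ on the gene's strand, with each CG dinucleotide in capitals. The sequences are from RefSeq on GRCh38.p14, where 5 of the 7 symbols were matched. Those of C12orf75 (195 bases), CYTL1 (236 bases) and KLRG2 (211 bases) were cut and stop short of the RefSeq start. The others hold the full 250 bases before it.
C12orf75, chr12:105330441-105330635, plus strand: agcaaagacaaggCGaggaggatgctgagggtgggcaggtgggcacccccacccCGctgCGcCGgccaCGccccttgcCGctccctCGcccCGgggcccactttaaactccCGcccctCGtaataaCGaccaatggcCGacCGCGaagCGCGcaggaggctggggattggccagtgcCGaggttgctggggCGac
CRYBG1, chr6:106360467-106360716, plus strand: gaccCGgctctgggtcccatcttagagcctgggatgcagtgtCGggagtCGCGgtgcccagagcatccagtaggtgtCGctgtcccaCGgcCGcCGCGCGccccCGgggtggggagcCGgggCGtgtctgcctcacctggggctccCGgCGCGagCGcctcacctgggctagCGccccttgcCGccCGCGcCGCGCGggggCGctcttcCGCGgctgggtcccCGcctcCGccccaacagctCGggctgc
CYTL1, chr4:5019473-5019708, minus strand: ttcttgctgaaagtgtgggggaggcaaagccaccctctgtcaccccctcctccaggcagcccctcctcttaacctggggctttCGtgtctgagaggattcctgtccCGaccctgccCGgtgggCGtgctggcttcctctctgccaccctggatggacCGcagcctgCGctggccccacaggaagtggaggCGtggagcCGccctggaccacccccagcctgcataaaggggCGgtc
FAM89A, chr1:231040255-231040504, minus strand: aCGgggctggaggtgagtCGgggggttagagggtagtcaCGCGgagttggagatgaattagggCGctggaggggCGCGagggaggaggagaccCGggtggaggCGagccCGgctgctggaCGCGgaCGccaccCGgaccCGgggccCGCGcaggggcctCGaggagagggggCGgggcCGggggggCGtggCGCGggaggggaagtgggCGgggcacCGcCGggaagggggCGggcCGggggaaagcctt
KLRG2, chr7:139483713-139483923, minus strand: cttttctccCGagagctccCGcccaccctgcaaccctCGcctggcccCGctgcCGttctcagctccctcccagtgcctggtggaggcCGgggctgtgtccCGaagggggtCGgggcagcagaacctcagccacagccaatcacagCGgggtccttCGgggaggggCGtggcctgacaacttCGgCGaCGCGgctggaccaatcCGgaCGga
Counted over the full 300-base window of each start (250 bases before it and 50 after), CpG number varied widely among the genes. FAM89A held 37 CG dinucleotides, the start of CRYBG1 shown above 36 and C12orf75 35, which place these windows at the 88.7th, 87.3rd and 85.9th percentile of 35116 promoter windows. KLRG2 held 25 (68.0th percentile). CYTL1, by contrast, held 14, the same as the median window, and the second RefSeq start of CRYBG1 held 15. GC content of the member windows was 62.7% to 77.0%, against a median of 58.7% over all windows.

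Short words for blood transcription factors were then searched on both strands of the 6 member windows. The GATA word AGATAA (in 10.3% of all windows), the RUNX word TGTGGT (13.1%) and the KLF word CCACACCC (3.28%) were in 0 of the 6. The MYB word AACNG was in 3 of the 6 (77.2% of all windows), the E-box word CANNTG in 4 (68.7%) and the ETS word CGGAAG in 1 (19.5%). The RUNX and KLF words, and the MYB and E-box words, can share bases. A match is a run of letters, not a bound site, and no binding or histone data were analysed here.

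The libraries held an estimated 18400000 to 35800000 read pairs each, and 13865 to 14361 genes per library reached a TPM (transcripts per 1000000, a share of the library scaled by transcript length) of 1. The hairpin's target was reduced in the libraries labelled with it: MEN1 measured 41.2, 39.6 and 37.1 TPM in control replicates 1 to 3, whereas its MEN1 shRNA values were 6.29, 6.44 and 6.88 TPM, 16.6% of the control mean. MEN1 shRNA replicate 1 was the library of its group most like the controls over all tested genes (r of 0.952 to 0.954, against 0.934 to 0.937 for replicates 2 and 3). All 16 erythroid markers on the list used were expressed. Of the markers listed for other blood lineages, CLC, PF4, PPBP and S100A8 were among those listed at 0 in all 6 libraries, while the mast cell tryptases TPSAB1 and TPSB2, the granule protein gene PRG2 (109 ± 27.6 TPM in the controls) and ITGA2B (33.8 ± 2.44 TPM; SD, n = 3 each) were expressed.

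Across the 7 genes, 7.81% to 22.9% of the control TPM was left with the MEN1 shRNA, a 4.37-fold to 12.8-fold lower level. The median log2 fold change of TPM + 1 was -3.06, beside -0.07 over the 14294 genes tested. The groups did not overlap for any of the 7, and the lowest control library exceeded the highest MEN1 shRNA library by 3.90 times (CMBL) to 9.77 times (C12orf75). All MEN1 shRNA libraries lay below all controls in 35.9% of genes tested, and 31.5% passed as lower at an adjusted p of 0.05 in limma. These shares are given as the background only, since the genes were chosen on this contrast. All 7 genes had a TPM of 1 or more in all 6 libraries, so none passed the filter on low values through the controls alone.

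**Figure D1:**
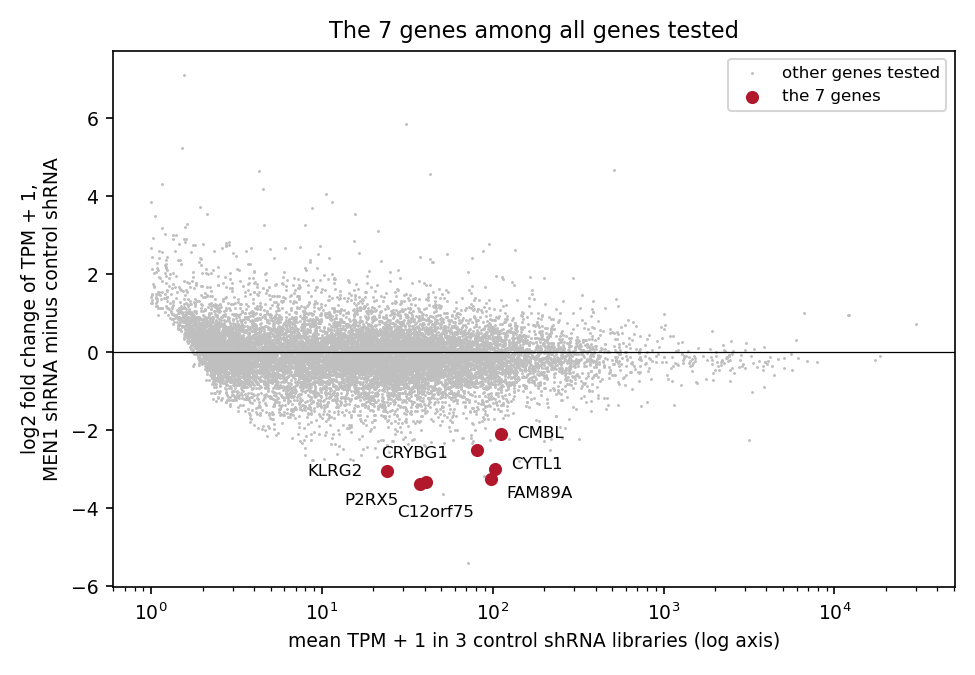
Log2 fold change of TPM + 1 (MEN1 shRNA minus control shRNA) against the mean TPM + 1 of the 3 control libraries on a log axis, each point 1 of the 14294 genes tested and the 7 genes in red. The 7 genes lie between -2.09 and -3.39, at control levels of 22.9 to 110.1 TPM, and 2 grey points lie below P2RX5.

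By log2 fold change of TPM + 1, the description "falling most" holds for 5 of the 7. Among 3843 named genes that were past the threshold, averaged 5 TPM or more in a group and had no overlap between groups, P2RX5, C12orf75, FAM89A, KLRG2 and CYTL1 ranked 1 to 5 by log2 fold change. CRYBG1 ranked 18 and CMBL 70. Ordered by p on the same contrast among the 4499 genes called lower, which weighs size against spread, CRYBG1 ranked 1, CMBL 4, C12orf75 7, CYTL1 148, KLRG2 321, P2RX5 635 and FAM89A 1214. That order only describes their spread and is no test of the 7 genes, since they were chosen on this contrast. The first named gene outside the leading 5 was SLC16A1, a lactate and pyruvate carrier (140.6 to 22.5 TPM, log2 fold change -2.79), followed by TRIM6 (-2.77), P2RY8 (-2.76), PPP1R1B (-2.73) and PNMT (-2.72). The order differs by percent of the control TPM left. P2RY8 (3.78%) and PPP1R1B (5.94%), at control means of 7.74 and 9.25 TPM, then fell further than any of the 7. TRIM6 (8.44%) then fell further than FAM89A (11.2%), CYTL1 (11.96%), CRYBG1 (16.7%) and CMBL (22.9%). Percent left was not ranked over all genes, so more genes may stand ahead of the 7 on that measure. CRYBG1 (-2.50) stood between GSTM3 (-2.51) and MYO1G (-2.49), and CMBL (-2.09) between NPM1P24 (-2.09) and SMYD2 (-2.06). Rows that carry only an identifier were left out of that ranking. With them, 2 such rows that met the same criteria stood ahead of P2RX5, and CRYBG1 and CMBL ranked 22 and 78. Of the 2, ENSG00000282885 had a mean of 71.0 TPM in the controls and 0.578 TPM with the MEN1 shRNA; it was singled out after its values were seen.

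P2RX5 (ENSG00000083454, chromosome 17, 3672199 to 3696240, minus strand) encodes a subunit of the P2X channels, which open to cations when extracellular ATP binds. Its TPM was 36.3, 39.98 and 32.4 in control replicates 1, 2 and 3, and 4.61, 2.91 and 1.02 in MEN1 shRNA replicates 1, 2 and 3. The MEN1 shRNA libraries thus differed among themselves by 4.51 times from replicate 1 to replicate 3, the widest spread of the 7 genes on a ratio scale, yet all lay far below the controls. Means were 36.3 ± 3.78 and 2.85 ± 1.79 TPM (SD, n = 3 each), a log2 fold change of -3.39 (SE 0.330) with 7.85% of the control level left.

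KLRG2 (ENSG00000188883, chromosome 7, 139452690 to 139483673, minus strand) encodes a membrane protein with a C-type lectin-like domain and was the least abundant of the 7 by TPM. It was not the lowest by deposited coverage, at 53.2 to 122 in the controls, against 4.85 to 8.47 for C12orf75. Control libraries held 25.8, 25.8 and 17.1 TPM, and MEN1 shRNA libraries 2.98, 1.46 and 1.26 TPM. Control replicate 3 was the low library of its group, and MEN1 shRNA replicate 1 the high one of the other. The means were 22.9 ± 5.03 and 1.90 ± 0.938 TPM (SD, n = 3 each), a log2 fold change of -3.06 (SE 0.247), and 8.31% was left.

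CYTL1 (ENSG00000170891, chromosome 4, 5014586 to 5019458, minus strand) encodes a small secreted protein that was found in CD34+ blood progenitors. Its level was 107, 88.0 and 109.7 TPM in the controls and 16.8, 9.29 and 10.4 TPM with the MEN1 shRNA. Replicate 1 was again the highest MEN1 shRNA library. CYTL1 averaged 101.6 ± 11.9 TPM in the controls and 12.2 ± 4.05 TPM with the MEN1 shRNA (SD, n = 3 each), a log2 fold change of -3.00 (SE 0.200) with 11.96% left.

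CRYBG1 (ENSG00000112297, chromosome 6, 106360717 to 106572017, plus strand), also known as AIM1, encodes a large protein with beta/gamma-crystallin domains. Control libraries held 80.02, 78.5 and 82.1 TPM, and the MEN1 shRNA left 14.8, 12.7 and 12.6 TPM. Libraries of either group lay close together. The means of 80.2 ± 1.81 and 13.4 ± 1.22 TPM (SD, n = 3 each) give a log2 fold change of -2.50 (SE 0.0784), and 16.7% was left.

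CMBL (ENSG00000164237, chromosome 5, 10275875 to 10307902, minus strand) encodes a cytosolic hydrolase that activates the prodrug olmesartan medoxomil. By TPM, CMBL was the most abundant of the 7, at 108.9, 111.6 and 109.8 TPM in the controls. It kept the largest share, at 27.9, 24.3 and 23.4 TPM with the MEN1 shRNA. Its control libraries differed by only 1.24% (coefficient of variation). Means were 110.1 ± 1.37 and 25.2 ± 2.38 TPM (SD, n = 3 each), a log2 fold change of -2.09 (SE 0.0765) with 22.9% left.

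FAM89A (ENSG00000182118, chromosome 1, 231018958 to 231040254, minus strand) had the most uneven MEN1 shRNA libraries by coefficient of variation. It measured 100.9, 97.9 and 92.4 TPM in the controls but 20.2, 7.36 and 5.08 TPM with the MEN1 shRNA. Replicate 1 held 3.25 times the mean of replicates 2 and 3. The means were 97.1 ± 4.33 and 10.9 ± 8.16 TPM (SD, n = 3 each), the log2 fold change was -3.26 (SE 0.4) and 11.2% was left, or 6.41% over replicates 2 and 3 alone.

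C12orf75 (ENSG00000235162, chromosome 12, 105235290 to 105396097, plus strand), also called OCC-1, measured 37.2, 44.1 and 37.9 TPM in the controls and 3.804, 2.699 and 2.804 TPM with the MEN1 shRNA. Its groups were the furthest apart of the 7. Means were 39.7 ± 3.796 and 3.10 ± 0.610 TPM (SD, n = 3 each), a log2 fold change of -3.32 (SE 0.128) with 7.81% left. The deposited coverage of this row was low, 0.289 to 0.531 with the MEN1 shRNA and 4.85 to 8.47 in the controls. Coverage stood in different ratios to TPM among the genes, so these values do not give the number of reads. In control replicate 1 it was 5.50 at 37.2 TPM for C12orf75 and 97.5 at 25.8 TPM for KLRG2. In the deposited tables the row spans 161 kb and starts well upstream of the RefSeq start used above.

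**Figure D2:**
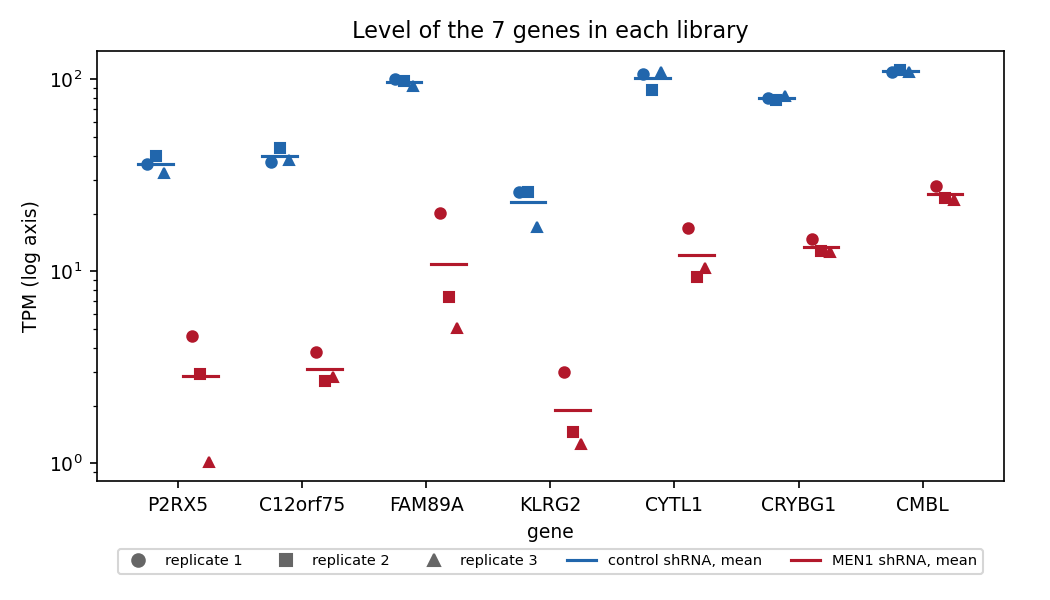
TPM of each of the 7 genes on a log axis in the 3 control (blue) and 3 MEN1 shRNA (red) libraries, with a symbol for each replicate and a line at the group mean. No red symbol reaches a blue one of the same gene, and red symbols spread most for P2RX5 (1.02 to 4.61 TPM) and FAM89A (5.08 to 20.2 TPM).

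The order of the genes by level, compared as TPM, which is scaled by length, was only partly kept. Deposited coverage gave another order. In each control library CYTL1 stood highest by coverage, and KLRG2 stood above CRYBG1, FAM89A, P2RX5 and C12orf75. Why the measures differ was not tested, and the order below is by TPM. In the controls CMBL, CYTL1 and FAM89A formed the top, each not separate from its neighbour by range, then came CRYBG1, then C12orf75 and P2RX5 together, then KLRG2. With the MEN1 shRNA, CMBL stood alone at the top. CRYBG1, CYTL1 and FAM89A followed with overlapping ranges, and C12orf75, P2RX5 and KLRG2 overlapped at the bottom. Seen against all tested genes, P2RX5 moved from the 69.8th to the 20.9th percentile of level and CMBL from the 89.8th to the 62.9th.

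The level left was highest in the same library for every gene. MEN1 shRNA replicate 1 was the highest of its group in 7 of 7 genes, at 1.17 times (CRYBG1 and CMBL) to 3.25 times (FAM89A) the mean of replicates 2 and 3. The same library was highest in 76.9% of the 987 genes called lower by 2-fold or more, so the pattern was common among falling genes. MEN1 itself did not follow it: its TPM was lowest in replicate 1 of the MEN1 shRNA group. Whether a library property other than the MEN1 RNA level accompanied this was not tested. Without replicate 1, 5.43% of the control level was left for P2RX5, 5.95% for KLRG2, 9.68% for CYTL1 and 21.7% for CMBL.

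**Figure D3:**
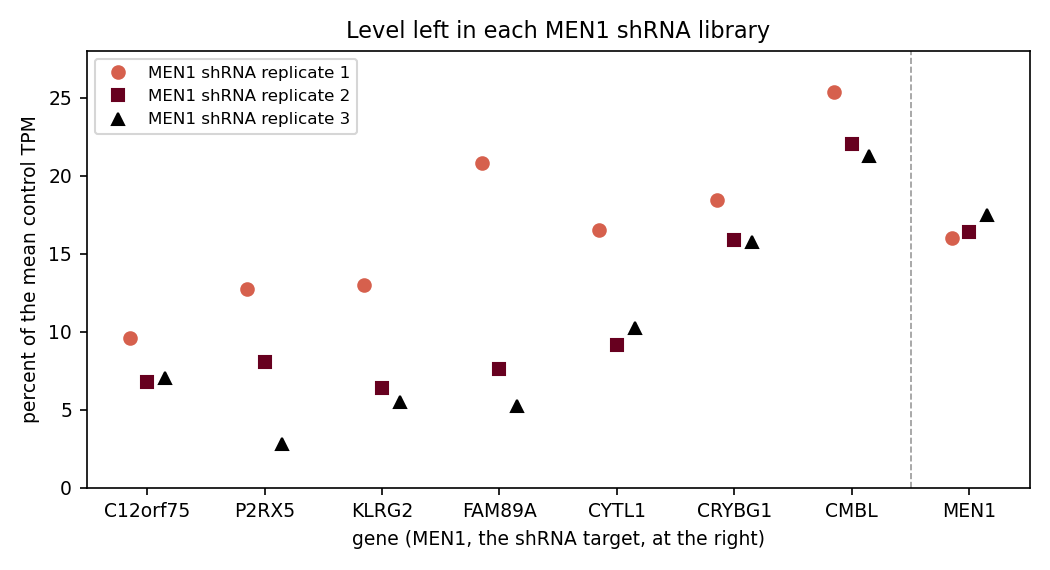
TPM in each MEN1 shRNA library as a percent of the mean control TPM for the 7 genes, ordered by their mean, with MEN1 at the right of the dashed line. Replicate 1 (circles) is the highest for each of the 7 genes, up to 20.8% for FAM89A and 25.3% for CMBL, and the lowest for MEN1 at 16.0%.

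The relative spread between libraries was larger at the lower level. The coefficient of variation was larger with the MEN1 shRNA in 7 of 7 genes, from 2.06 times that of the controls (C12orf75) to 16.8 times (FAM89A), while for MEN1 it was 4.64% against 5.34%. Deviations from the group means also moved together between the genes. Over the 6 libraries their Pearson r ran from 0.52 (P2RX5 and CYTL1) to 0.99 (FAM89A and CMBL). These values rest on the same 6 libraries, and all 7 genes share the high MEN1 shRNA replicate 1. The share of all genes tested with a larger coefficient of variation was not counted, and r between genes outside the 7 was not computed. Neither trait is thus shown to be particular to these genes.

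The 3 named genes most like each of the 7 over the 6 libraries, by Pearson r of log2(TPM + 1), had falls of very different size. They were STARD3NL, RAB18 and ATG13 for P2RX5, TGFBR2, TGDS and CTSH for C12orf75, SRI, MRPS17 and EXOSC3 for FAM89A, and MAN1C1, NHERF1 and PDHA1 for KLRG2. For CYTL1 they were NIP7, SRM and PGD, for CRYBG1 PRELID3B, EIF4EBP2 and TAGLN2, and for CMBL PRELID3B, REXO4 and MGME1. All of these r were at least 0.998, and 176 (P2RX5) to 598 (CMBL) genes reached 0.99, since any gene that separates the groups cleanly scores high over 6 libraries. Log2 fold changes of these genes ran from -0.36 (STARD3NL) to -2.36 (CTSH and MAN1C1). On deviations from the group means, which remove the group difference, the closest were SNORD100, RWDD4P2 and RAB18 for P2RX5, FKBP5, KIF13A and SRRM1 for C12orf75, ATP7B, ENTREP3 and ERGIC1 for FAM89A, and FAHD2A, DYNC2I2 and PIGG for KLRG2. They were FSTL3, COPS7B and DDX55 for CYTL1, TUFM, PDCD2 and KIAA1143 for CRYBG1, and NPRL2, LRRC23 and TAP2 for CMBL. RAB18, a small GTPase, was the gene named for P2RX5 on both scales.

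Relatives of the 7 genes, which the choice did not use, moved in both directions. Of 10 family members 6 passed the filter on low values, and 2 were lower and 2 higher at an adjusted p of 0.05. Over all genes tested 53.6% passed, 31.5% lower and 22.1% higher. The median log2 fold change of the 6 was -0.02, beside -0.07 for all genes.

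Among P2X subunits, P2RX4 rose from 20.2 ± 0.407 to 25.3 ± 0.138 TPM (SD, n = 3 each), a log2 fold change of 0.31 (adjusted p 0.00527 in limma). P2RX7 fell from 1.53 ± 0.595 to 0.506 ± 0.0843 TPM (-0.73, adjusted p 0.0187) and passed the filter through the controls alone. That call was lost without MEN1 shRNA replicate 3 (adjusted p 0.0521), without control replicate 3 (adjusted p 0.0570) and with no filter (adjusted p 0.0724). P2RX1 measured 7.90, 9.85 and 2.40 TPM with the MEN1 shRNA and 5.99 to 6.52 TPM in the controls (-0.07, adjusted p 0.896). Replicate 3 decided that value: without it the log2 fold change of P2RX1 was 0.44 with an adjusted p of 0.0310. Summed over the family, P2X transcripts went from 64.7 ± 2.91 to 35.6 ± 5.47 TPM. The share of P2RX5 in that sum was 52.3% to 59.0% in the controls and 3.48% to 11.97% with the MEN1 shRNA. P2RX4 made up 29.2% to 32.7% in the controls and 65.0% to 86.2% with the MEN1 shRNA. P2RX5 had been chosen for its large fall, so the changes of the sum and of these shares are not separate results.

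FAM89B, the relative of FAM89A, rose from 18.2 ± 3.36 to 23.6 ± 1.14 TPM (SD, n = 3 each; log2 fold change 0.38, adjusted p 0.0449). That call was lost without any of 5 single libraries (MEN1 shRNA replicate 1, 2 or 3, or control replicate 1 or 3), with adjusted p from 0.0537 to 0.123. It was also lost with no filter (adjusted p 0.131) and without the trend (adjusted p 0.0631). FAM89A, chosen for its large fall, made up 84.2% of the TPM of the pair in the controls and 29.2% with the MEN1 shRNA. CRYBG3 fell from 3.76 ± 0.322 to 2.198 ± 0.195 TPM (-0.57, adjusted p 0.00628 in limma). The share of CRYBG1, chosen for its large fall, went from 95.3% to 85.6% of the family. KLRG1 measured 1.41 ± 0.310 TPM in the controls and 1.48 ± 0.463 TPM with the MEN1 shRNA (0.04, adjusted p 0.896). It made up 5.99% and 44.8% of the TPM of the pair with KLRG2, which had been chosen for its large fall.

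**Figure D4:**
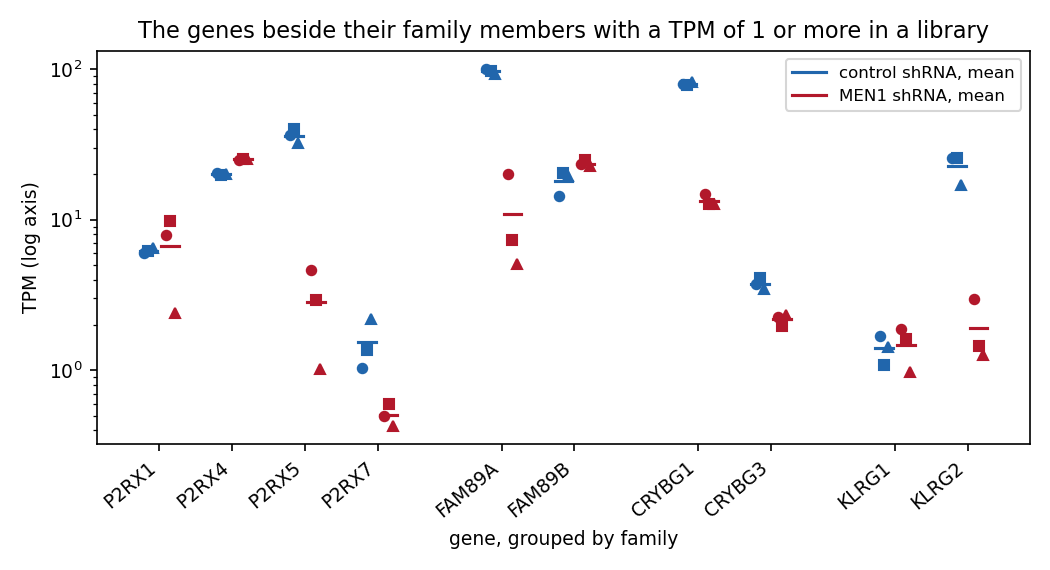
TPM on a log axis of the genes of 4 families that reached a TPM of 1 in a library, in control (blue) and MEN1 shRNA (red) libraries, with circles, squares and triangles for replicates 1, 2 and 3 and a line at each mean. P2RX5, FAM89A, CRYBG1 and KLRG2 are lower in red while P2RX4 (20.2 to 25.3 TPM) and FAM89B (18.2 to 23.6 TPM) are higher.

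Other receptors for ATP and adenosine were set beside P2RX5, which had been chosen for its large fall. On a list of 18, 6 were tested, 3 were lower (P2RX7 among them) and 1 higher, beside 31.5% lower and 22.1% higher over all genes tested. ADORA2B, an adenosine receptor, fell from 26.3 ± 2.00 to 13.1 ± 1.08 TPM (SD, n = 3 each; log2 fold change -0.96, adjusted p 0.000142), and P2RY1, a G-protein-coupled receptor for ADP, from 4.31 ± 0.608 to 1.94 ± 0.306 TPM (-0.85, adjusted p 0.00213). Of 14 genes for the release and breakdown of ATP 6 were tested, 3 lower and 1 higher, against the same background shares. ENTPD1, the ectonucleotidase CD39, fell from 5.29 ± 0.780 to 1.65 ± 0.444 TPM (-1.26, adjusted p 0.000637) and ENTPD6 from 43.2 ± 2.13 to 27.7 ± 1.56 TPM (-0.63, adjusted p 0.000298). ENTPD4 rose by 0.33 (adjusted p 0.0136), a call lost without MEN1 shRNA replicate 2, and the fall of ENTPD5 (-0.42, adjusted p 0.0450) was lost without any of 5 libraries, all but MEN1 shRNA replicate 1, and also with no filter, in FPKM, under the 3 rescalings and without the trend (adjusted p 0.0526 to 0.139).

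C-type lectin-like genes other than KLRG2 were mostly silent: 16 of 25 were listed at 0 in all 6 libraries and 4 were tested. Of these 0 were lower and 2 higher, where 31.5% and 22.1% of all genes tested were. CD69, an early activation marker of lymphocytes, rose from 6.44 ± 0.567 to 48.1 ± 13.02 TPM (SD, n = 3 each; log2 fold change 2.69, adjusted p 4.57e-05), and CLEC11A, a secreted growth factor, from 11.1 ± 1.45 to 21.6 ± 5.35 TPM (0.88, adjusted p 0.00522). Among 13 esterases and hydrolases listed for comparison with CMBL, 6 were tested, 3 lower and 0 higher, against the same shares. ESD fell by 0.44 on the log2 scale (adjusted p 0.000432) and PON2 by 0.74 (adjusted p 0.000778). BPHL was at -0.39 (adjusted p 0.0394), a call lost without each of 5 libraries and also with no filter, in FPKM and under the 3 rescalings (adjusted p 0.0526 to 0.115). The 3 were each less changed than CMBL, which had been chosen for its large fall.

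CYTL1 was set beside 26 stem and progenitor markers, of which 12 were tested, 9 lower and 1 higher, with a median log2 fold change of -1.14, beside 31.5% lower, 22.1% higher and -0.07 over all genes tested. SOX4, 1 of the 9, passed the filter on low values through the controls alone. The markers that were not tested averaged 1.17 TPM (ERG, controls) or less in either group. Among them CD34 was at 0.489 TPM in the controls and 0.0102 TPM with the MEN1 shRNA. SPINK2 and CD38 were listed at 0 in all 6 libraries. CSF2RB, the common beta chain of the GM-CSF and IL-3 receptors, fell from 87.5 ± 3.93 to 25.9 ± 0.682 TPM (SD, n = 3 each; -1.72, adjusted p 9.44e-06). KIT, the stem cell factor receptor, fell by 1.15, MYB by 1.23 and NPR3 by 1.93 on the log2 scale, all at adjusted p of 3.16e-05 or less, and TAL1 rose by 0.74. The largest fall among the 9 was that of NPR3, beside -3.00 for CYTL1, which had been chosen for its large fall. The summed level of the list was 789 to 887 TPM with the MEN1 shRNA and 1356 to 1554 TPM in the controls.

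The levels of other cell type markers are given beside these, with the same background shares. The 16 erythroid markers were all tested, 0 lower and 12 higher (31.5% and 22.1% over all genes), and summed to 101119 to 113329 TPM with the MEN1 shRNA against 58464 to 64594 TPM in the controls. Mast cell and basophil markers, 4 of 9 tested with 3 lower, summed to 778 to 941 against 1169 to 1386 TPM. That sum came almost wholly from TPSAB1, TPSB2 and PRG2. Other markers on that list, CPA3, HDC, FCER1A, EPX and CLC, averaged 0.621 TPM or less in either group. Of 11 megakaryocyte markers 2 were tested, with 1 lower and 1 higher and overlapping sums (35.1 to 41.2 against 33.9 to 38.6 TPM). These sums hide opposite changes. TUBB1 rose from 1.86 ± 0.344 to 18.3 ± 2.08 TPM (SD, n = 3 each, log2 fold change 2.75, adjusted p 1.73e-05 in limma). ITGA2B fell from 33.8 ± 2.44 to 18.6 ± 2.35 TPM (-0.83, adjusted p 0.000456). Of 11 myeloid markers only LYZ was tested and it was lower (0.944 to 2.37 against 2.56 to 2.84 TPM in sum), and of 11 lymphoid and NK markers only CD3D, which was higher (3.99 to 6.05 against 1.17 to 1.38 TPM in sum). LYZ passed the filter through the controls alone and CD3D through the MEN1 shRNA libraries alone, so each was admitted by the group where it is high. Their part in the levels of the 7 genes was not tested, and in bulk RNA fewer cells of a type and less RNA per cell cannot be told apart.

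Menin and MLL targets known from other cells, mostly leukaemias, were listed for comparison. Of 18 on the list 11 were tested, 8 lower and 2 higher, with a median log2 fold change of -0.49, beside 31.5% lower, 22.1% higher and -0.07 over all genes tested. MYC fell from 232 ± 6.52 to 74.1 ± 15.5 TPM (SD, n = 3 each; -1.65, adjusted p 6.4e-05), MYB from 250.2 ± 11.8 to 106 ± 8.92 TPM (-1.23, adjusted p 2.97e-05) and TERT from 6.49 ± 0.399 to 0.618 ± 0.615 TPM (-2.27, adjusted p 0.000235). JMJD1C was at -0.54 (adjusted p 0.00126). The 2 higher were CDKN1B, from 33.3 ± 8.34 to 69.1 ± 14.5 TPM (1.04, adjusted p 0.00434 in limma), and CDKN2C (0.24, adjusted p 0.0217). MEIS1, HOXA7, HOXA9 and MEF2C did not pass the filter on low values.

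To see how far the differences reached along the chromosome, the nearest tested named gene on each side of each of the 7 and every row overlapping them were examined. Of 26 such rows 18 were tested, 9 were lower, 2 higher and 7 did not pass, with a median log2 fold change of -0.40. The background shares were 31.5% lower and 22.1% higher. Of the 18, 3 passed the filter through 1 group alone (CKAP4, MARCHF6-DT and an unnamed row). Among the 14 flanking genes 6 were lower and 1 higher. None differed by as much as the gene beside it, but the 7 genes had been chosen for large falls.

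On the side of P2RX5, EMC6, 2.53 kb away, measured 55.3 ± 12.7 and 52.0 ± 4.18 TPM in controls and MEN1 shRNA libraries (SD, n = 3 each; log2 fold change -0.06, adjusted p 0.786), and ITGAE, 18.4 kb away, was at -0.42 (adjusted p 0.0886). A readthrough row, P2RX5-TAX1BP3, stayed at or below 1.48 TPM and was not tested. TAX1BP3 itself, whose row lies 3.52 kb beyond P2RX5 and which was looked up after values had been seen, rose from 35.6 ± 1.65 to 67.9 ± 4.22 TPM (0.91, adjusted p 6.23e-05). EMC6 and ITGAE were each called lower when certain libraries were left out: EMC6 without control replicate 3 (-0.27, adjusted p 0.0459), and ITGAE without MEN1 shRNA replicate 1 (-0.57, adjusted p 0.0315) or control replicate 1 (-0.56, adjusted p 0.0375).

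C12orf75 overlaps APPL2, an endosomal adaptor gene on the opposite strand, at its 5′ end. APPL2 measured 15.0, 19.9 and 15.4 TPM in the controls and 35.5, 43.5 and 39.5 TPM with the MEN1 shRNA. APPL2 thus rose while C12orf75 was lower, with means of 16.8 ± 2.69 and 39.5 ± 3.98 TPM (SD, n = 3 each; log2 fold change 1.19, adjusted p 0.000184). Whether the quantification used strand is not given in the sources used here, so reads in the shared stretch may have been divided between the genes. WASHC4, 66.2 kb away, was at 0.21 (adjusted p 0.0523), and passed the threshold under 5 of the alternatives. CKAP4, 842 kb away, rose by 0.96 (adjusted p 0.00617) from a control mean of 0.397 TPM.

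Around FAM89A, TRIM67 fell from 7.32 ± 0.338 to 4.19 ± 0.297 TPM (SD, n = 3 each; -0.68, adjusted p 0.00109) and ARV1 was at -0.25 (adjusted p 0.0184), a call lost without MEN1 shRNA replicate 3 or control replicate 3 and under 3 rescalings. An unnamed row on the opposite strand inside FAM89A (ENSG00000227934) fell by 1.20 (adjusted p 0.00364). The row of the microRNA gene MIR1182, also inside FAM89A, had groups that overlapped (3.12 to 11.2 against 10.9 to 29.3 TPM). Its call at an adjusted p of 0.0466 was lost without any of MEN1 shRNA replicates 1 and 2 and control replicates 2 and 3. The call was also lost with a pseudocount of 0.1, with no filter, under the 3 rescalings and without the trend (adjusted p 0.0519 to 0.167). Reads of MIR1182, which lies on the strand of FAM89A, cannot be told apart from those of FAM89A. For the unnamed row this depends on whether the quantification used strand, which is not given.

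KLRG2 sat between genes that did not pass, LUC7L2 at 29.2 kb (139 ± 4.16 against 137 ± 11.6 TPM, controls against MEN1 shRNA, SD, n = 3 each; -0.02, adjusted p 0.824) and ERHP1 at 50.6 kb (-0.03, adjusted p 0.935). For CYTL1, the kinase gene STK32B at 32.0 kb fell from 28 ± 1.02 to 14.3 ± 2.33 TPM (-0.93, adjusted p 0.000374), while STX18-AS1 at 227 kb was at -0.38 (adjusted p 0.148). STK32B thus fell in the same direction as CYTL1 but to 0.512 of its control mean.

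CRYBG1 has ATG5 34.9 kb before it, at -0.11 (adjusted p 0.273), and overlaps RTN4IP1 at its 3′ end, which fell by 0.59 (adjusted p 0.00404). QRSL1, 57.6 kb beyond, fell from 27.1 ± 1.75 to 15.4 ± 0.453 TPM (SD, n = 3 each; -0.78, adjusted p 0.000158). Beside CMBL, the chaperonin subunit gene CCT5 at 9.49 kb fell from 399.7 ± 21.1 to 265 ± 12.3 TPM (-0.59, adjusted p 0.000193). MARCHF6-DT at 15.6 kb was at -0.63 (adjusted p 0.0359), a call lost without MEN1 shRNA replicate 1 or 3 or control replicate 1 or 3. It was also lost with no filter (adjusted p 0.13).

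**Figure D5:**
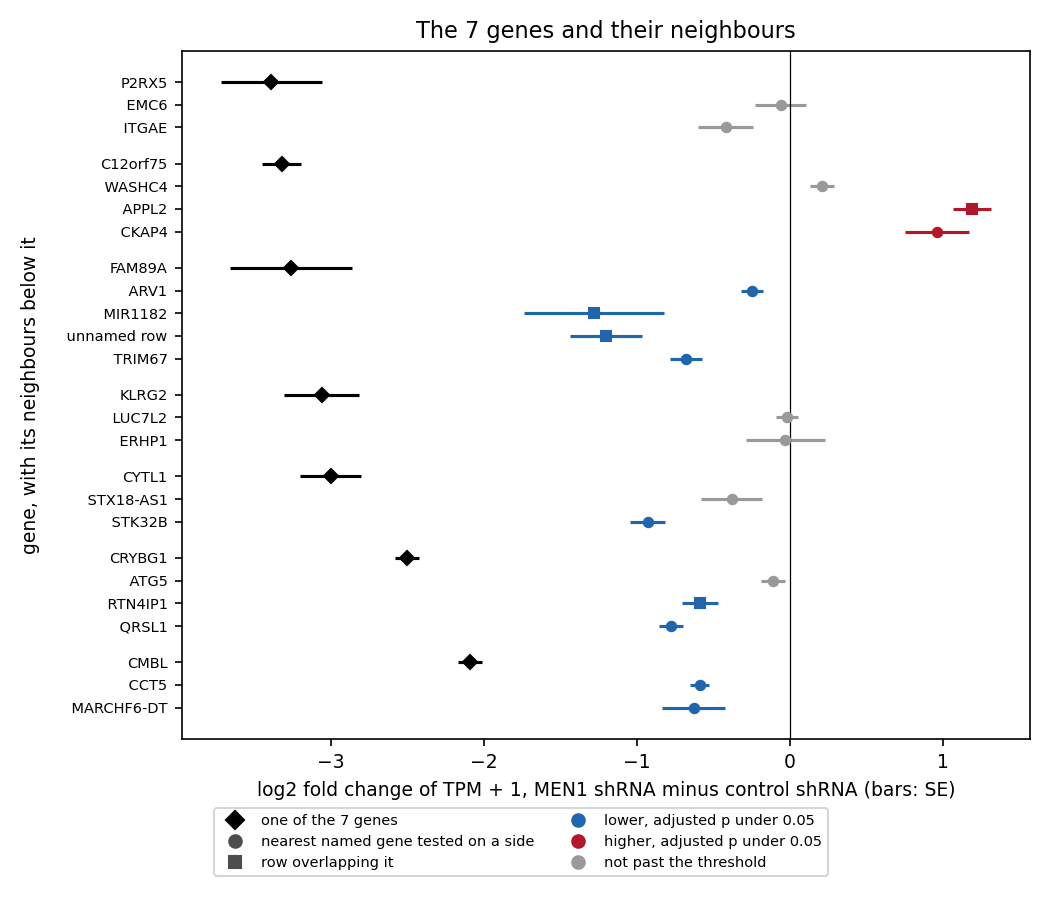
Log2 fold change of TPM + 1 (MEN1 shRNA minus control shRNA, bars show the SE) of the 7 genes (black diamonds) with the tested rows that flank (circles) or overlap (squares) them, blue where lower and red where higher at an adjusted p of 0.05. The 7 genes lie at -2.09 or lower, and the rows around them between -1.28 (MIR1182) and 1.19 (APPL2).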

How the data were processed

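Poly(A) RNA was sequenced from strand-directional libraries, per the labels' protocols. FastQC, Trimmomatic, STAR 2.7.1a, Picard 2.20.4, StringTie 2.0.4 and hg38 are named, with no role, per the submitters' processing notes. Per the file headers, the authors give TPM, which sums to 1000000 in a library, and FPKM, scaled for gene length and for the number of fragments. The deposited coverage, a signal described as mean reads per exonic base, is not scaled for depth. Only 19.1% to 21.2% of the genes at 1 TPM shared their library's most common ratio of coverage to FPKM. Coverage therefore does not give read numbers that can be compared between genes. In control replicate 2, 2 deposited coverage values and 1 TPM value were negative residues near 0, so these columns were treated as a score and the residues set to 0. Because TPM is a share of the library, a rise of abundant transcripts lowers others.

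Depth was inferred from coverage, FPKM and a most common 302 bases per fragment. The 14294 genes reaching 1 TPM in 3 or more of the 6 libraries entered limma 3.58.1 (R 4.3.3) on log2(TPM + 1), with a mean-variance trend, 2-sided, Benjamini-Hochberg adjusted over all of them at 0.05. A fold change on this scale understates that of low genes. The fit was tested on simulated data. Python 3.11.15, pandas 2.3.3, NumPy 2.4.6 and matplotlib 3.10.9 did the rest.

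The 7 genes and the 12 lists were chosen with earlier results of these data known, so counts are set beside those over all genes. Named are the 7 genes, MEN1, their neighbours, tested relatives, at most 4 genes per list with the lowest adjusted p, the 3 most alike per gene among genes with a mean TPM of 5 or more, and genes next to them in rank. Menin targets that rose, and some genes of the lists that were not tested, are also named. Alternatives changed the pseudocount, filter, unit, scaling, trend, replicate block and the libraries used. Promoter windows are RefSeq's (GRCh38.p14), matched by symbol. Gene positions are those of the deposited tables.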

Additional observations from a re-analysis of the deposited data

How the results depend on the processing

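No alternative reversed the direction of any of the 7 genes: of 112 comparisons with the reported values 6 moved by more than 1 SD, and the log2 fold changes ranged from -3.85 to -2.98 for P2RX5, -3.65 to -2.97 for C12orf75, -3.78 to -2.88 for FAM89A, -3.59 to -2.60 for KLRG2, -3.24 to -2.84 for CYTL1, -2.58 to -2.38 for CRYBG1 and -2.16 to -2.0 for CMBL. Their median was -3.40 with a pseudocount of 0.1 and -3.32 to -2.91 without single libraries. The number of genes past the threshold was 6345 to 7674 against 7657, and 58.8% of them were lower, against 50.5% to 52.7% under the 3 rescalings. The number of relatives past the threshold fell from 4 to 2 with no filter, with a mean TPM of 5 or more, and without control replicate 3 (2 to 4 over the single libraries left out), and that of ATP and adenosine receptors from 4 to 2 with a mean TPM of 5 or more. The labels do not say whether replicate numbers pair the libraries. Over all genes tested, deviations of same-numbered libraries correlated at 0.017, -0.027 and -0.012. Such values cannot show whether same-numbered libraries were prepared together. The replicate block gave 7012 genes, 9 neighbours, 4 relatives and 10 progenitor markers, and ended the calls of ARV1, MARCHF6-DT, ENTPD5 and BPHL.

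Genes that did not pass changed sign as follows. EMC6 was at 0.03 with median-of-ratios scaling, 0.0051 rescaled without globin and mitochondrial genes and 0.02 with quantile normalization. LUC7L2 was at 0.01 in FPKM and at 0.07 and 0.05 with the first rescalings, and ERHP1 at 0.02 and 0.0041. P2RX1 was at 0.0058 with median-of-ratios scaling and 0.03 with quantile normalization. Leaving out single libraries gave -0.27 to 0.04 for EMC6, -0.09 to 0.02 for LUC7L2, -0.26 to 0.14 for ERHP1, -0.40 to 0.44 for P2RX1 and -0.08 to 0.19 for KLRG1. The cause was not tested. Deposited coverage was lowest for C12orf75, P2RX5 and FAM89A, at 0.289, 0.558 and 1.45 in their lowest libraries, but it does not give read numbers.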
